A study of Mus musculus with 7 samples.

Results

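The 42 genes described here encode the DNA replication machinery of mouse cells, and they were followed in the colon epithelium after chemically induced colitis. They were chosen by name, with no threshold on a measured value, from the factors that license origins, unwind and copy DNA, supply deoxynucleotides and rebuild chromatin at the fork. The choice was made with earlier results of these data known. All 42 were found among the 18036 genes with at least 1 read in the study, and all 42 had reads in each of the 7 libraries, with at least 16 reads per library. RNA came from the scraped colon epithelium of female hCYP1A mice on a C57BL/6 background, 6 weeks old, a humanized strain that carries human CYP1A. Each library was 1 pool of equal amounts of RNA from 3 mice. One library came from untreated mice. Of the other 6, 3 came from mice given 1.5% dextran sulfate sodium (DSS) in drinking water for 5 days and killed 1, 3 or 7 days after DSS ended. The last 3 came from mice given PhIP, a heterocyclic amine formed in cooked meat, in 2 doses of 100 mg/kg set 4 days apart, then the same DSS course and the same days of killing (PhIP/DSS). By the labels the pathology was colitis on the first and second of these days and partial colitis on day 7. No condition was sequenced more than 1 time, so the spread between pools of one condition was not measured, and there was no group given PhIP alone.

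The libraries held between about 7664000 and 8782000 uniquely mapped reads, and between 15849 and 16134 genes had a read in each. Levels are given in RPKM, uniquely mapped reads scaled to gene length and to the total of the library. Ratios between libraries were computed from read counts scaled for depth and composition with TMM factors, which lay between 0.98 and 1.02. The 95% intervals beside ratios cover counting error only, not differences between mice. The 10 epithelial reference genes summed to between 6549 and 7430 RPKM in all 7 libraries, and Epcam, an epithelial adhesion molecule, lay between 718 and 1018 RPKM.

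A cell copies its genome in a fixed order. In G1 phase the origin recognition complex, Cdc6 and Cdt1 load the MCM helicase onto DNA. At the start of S phase Cdc45 and the GINS complex convert it into the active helicase, and primase, 3 replicative polymerases and the sliding clamp then copy the strands. Most genes of this machinery are transcribed under E2F control as a cell commits to S phase. In the colon the dividing cells sit in the lower part of the crypts, and DSS injures the epithelium, which is afterwards rebuilt from crypt cells.

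The replication genes were highest on day 1, the first day sampled, in both arms, and lay closer to the control on each later day. In bulk RNA more dividing cells and more RNA per dividing cell cannot be told apart. On day 1 after DSS 33 of 42 (78.6%) were at least 1.5-fold above the control, beside 14.6% of all 12061 genes tested. On day 3 of the DSS arm 19 of 42 were, beside 14.7%, and on day 7 there were 7 of 42 (16.7%), beside 13.6%. In the PhIP/DSS arm the counts were 35 of 42 (83.3%) on day 1 beside 22.5% of all genes, 16 of 42 on day 3 beside 11.5%, and 4 of 42 (9.52%) on day 7 beside 13.1%. The day 7 shares were near those of all genes. None of the 42 was 1.5-fold below the control in any of the 6 treated libraries, beside between 10.3% and 20.3% of all genes. The median log2 ratio of the 42 genes to the control was 0.84, 0.50 and 0.22 on days 1, 3 and 7 of the DSS arm and 1.13, 0.44 and 0.20 in the PhIP/DSS arm, while the median of all genes lay between -0.02 and 0.01. Both day 1 libraries stood above all 5 others for 34 of the 42 genes, beside 16.2% of all genes. The exceptions were Orc6, Rfc1, Rfc4, Pola1, Prim1, Pole, Pole2 and Rpa2. All 6 ratios share the 1 control library, so its own deviations enter each of them.

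**Figure D1:**
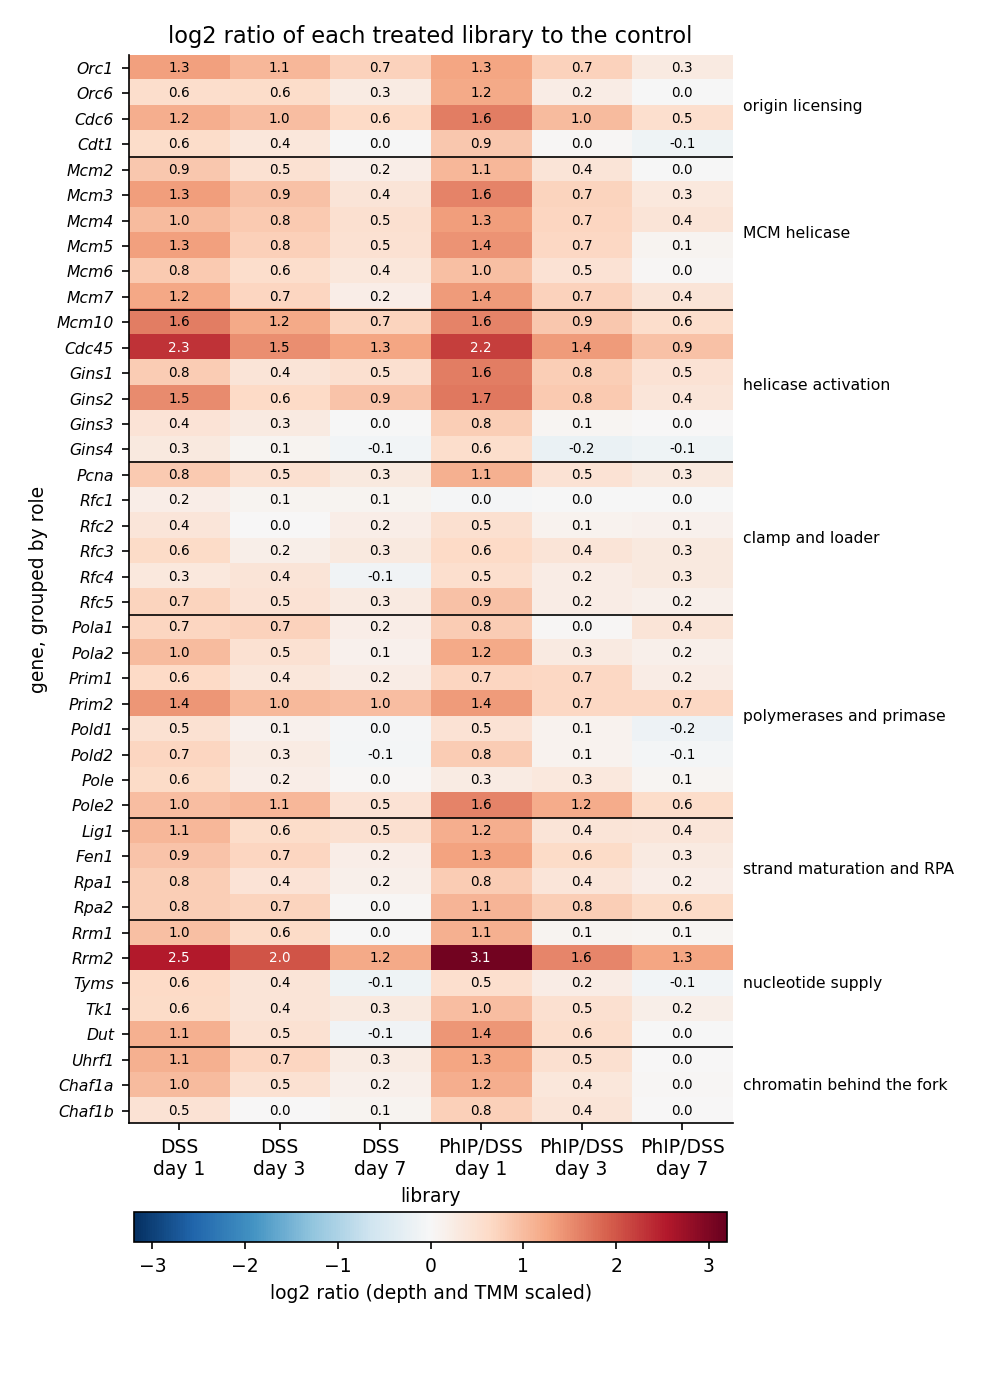
Log2 ratio of each of the 42 replication genes (rows, grouped by role) in the 6 treated libraries (columns) to the control library, with colour and printed value giving the same quantity. The 2 day 1 columns are the darkest, Cdc45 and Rrm2 stand out in every column, and Rfc1 lies near 0 throughout.

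No replicates being available, the counts of all 12061 genes were fitted in 1 edgeR quasi-likelihood model that gave the control and every day their own level and PhIP 1 term, so that the spread came from how the difference between arms varied over days, with 2 residual degrees of freedom. At a Benjamini-Hochberg adjusted p under 0.05 this fit called 0 of the 42 genes and 0 of all genes (0%) in each of its 5 comparisons. The smallest adjusted p of a replication gene on day 1 was 0.0710. At an unadjusted p under 0.05, 32 of the 42 were higher on day 1 than in the control, beside 16.4% of all genes. The count was 20 on day 3, beside 10.3%, and 5 on day 7, beside 9.22%. None of the 42 was lower at that threshold on any of the days, beside 16.2% of all genes on day 1, 8.67% on day 3 and 7.99% on day 7. The median fitted log2 fold change of the 42 genes was 0.98 on day 1, 0.47 on day 3 and 0.23 on day 7. DESeq2 on the same design called 14 of 42 higher on day 1, beside 6.32% of the genes it gave an adjusted p, only Rrm2 on day 3, beside 2.60%, and 0 on day 7, beside 3.04%. It called none of the 42 lower, beside 4.75%, 1.13% and 1.29% on days 1, 3 and 7. The 14 were Mcm2 to Mcm7, Mcm10, Cdc45, Pcna, Lig1, Rrm1, Rrm2, Dut and Uhrf1. The edgeR count of genes higher on day 1 was 28 without the DSS day 1 library, beside 18.9% of all genes, and 20 without the PhIP/DSS day 1 library, beside 6.17%, in fits whose spread then came from days 3 and 7 alone. Without these libraries the day 3 count was 11, beside 9.46%, and 13, beside 9.94%. The day 7 count was 1, beside 9.03%, and 2, beside 9.47%, under the share of all genes in both fits.

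The 6 subunits of the MCM2-7 ring, the replicative helicase, were all higher in both day 1 libraries than in the 5 others. The mean of the 6 subunits was 10.3 RPKM in the control, 21.9, 16.3 and 12.8 RPKM on days 1, 3 and 7 of the DSS arm, and 24.9, 15.5 and 11.8 RPKM in the PhIP/DSS arm. All 6 were at least 1.5-fold above the control in each day 1 library, 4 in each day 3 library and 0 in either day 7 library.

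Mcm2 was at 10.2 RPKM in the control, 18.6, 14.01 and 11.5 after DSS (days 1, 3 and 7) and 21.7, 13.6 and 10.1 after PhIP/DSS. Mcm3 was at 7.28 RPKM in the control, 18.4, 13.5 and 9.40 after DSS and 22.1, 11.8 and 9.16 after PhIP/DSS. Mcm4 was at 7.34 RPKM in the control, 14.9, 12.8 and 10.2 after DSS and 18.7, 11.6 and 9.62 after PhIP/DSS. These 3 subunits had the same order of days in both arms, and Mcm2 was back at the control level by day 7 of the PhIP/DSS arm, with a ratio of 1.00 (0.84 to 1.18). Mcm5 was at 8.85 RPKM in the control, 22.0, 14.7 and 12.1 after DSS and 24.2, 13.9 and 9.32 after PhIP/DSS. Mcm6, the most abundant subunit in the control, was at 15.8 RPKM there, 28.3, 22.9 and 19.6 after DSS and 31.2, 21.6 and 16.2 after PhIP/DSS. Mcm7 was at 12.4 RPKM in the control, 29.4, 19.6 and 13.8 after DSS and 31.8, 20.5 and 16.3 after PhIP/DSS. Day 7 differed between the arms beyond counting error for Mcm5 and Mcm6, with PhIP/DSS to DSS ratios of 0.75 (0.64 to 0.88) and 0.81 (0.71 to 0.93).

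The subunits assemble in equal numbers, and their levels lay within a narrow band. The highest subunit was between 1.70 and 2.17 times the lowest in every library, with the widest ratio in the control. On day 1 the fitted log2 fold change ranged from 0.91 ± 0.18 (SE) for Mcm6 to 1.47 ± 0.20 for Mcm3, and the adjusted p of all 6 was near 0.071 with edgeR. Mcm7 had the smallest standard error of the 6, at 1.30 ± 0.13.

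**Figure D2:**
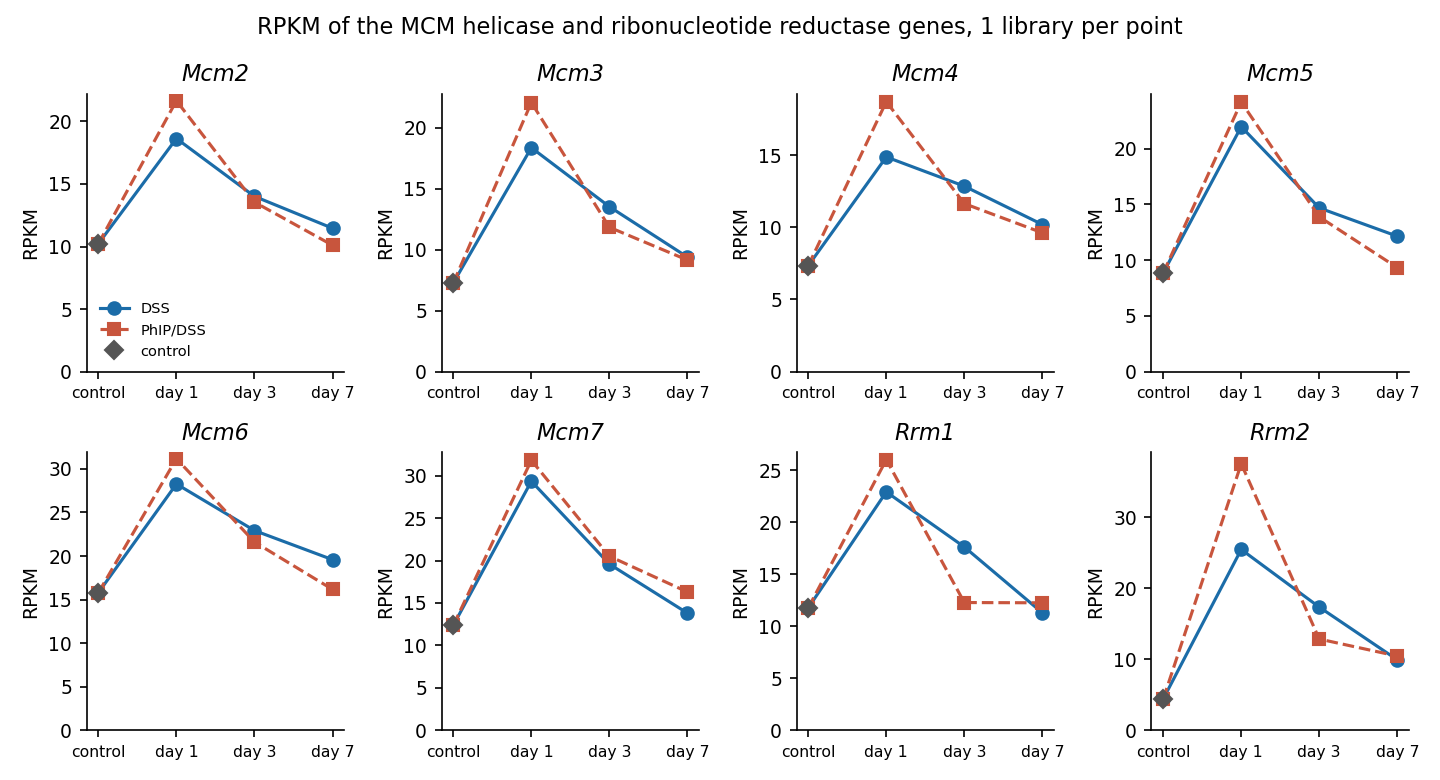
RPKM of Mcm2 to Mcm7, Rrm1 and Rrm2 (y axes, each from 0) in the control and on days 1, 3 and 7 (x axis, evenly spaced and not to scale in time) of the DSS and PhIP/DSS arms, 1 library per point and the control drawn in both arms. Day 1 is the highest point of both arms in all 8 panels, and the PhIP/DSS point lies above the DSS point on day 1.

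Since many of the 42 genes were high in the same libraries, the 250 bases before their annotated starts were searched for an E2F-type motif in 4 forms, TTTGGCGC, TTTGCCGC, TTTCGCGC and TTTCCCGC, on both strands. RefSeq promoters (build GRCm38.p6) were at hand for 35 of the 42 genes, 41 promoters in all. The motif was found in 9 of the 41 (22.0%), beside 3.19% of the 12222 promoters of the genes tested, 1.86% of all 32851 promoters in the table and 1 of 27 promoters of the mitosis and spindle genes. The 9 belong to Cdc6, Gins3, Mcm5, Mcm6, Mcm7, Orc1, Pola1, Rfc3 and Uhrf1. The letters CCAAT, on either strand, were in 58.5% of the 41 promoters, beside 35.1% for the genes tested and 77.8% for the mitosis and spindle genes. A match is a description of the sequence and was not tied here to binding of any factor. The 4 stretches below are those of the 9 that lie outside every annotated gene, shown because they hold the motif in genes of the helicase and the clamp loader, and capitals mark the motif. They run 5′ to 3′ on the gene's strand, Mcm5 at chr8:75109316-75109407 (plus), Mcm6 at chr1:128359706-128359792 (minus), Gins3 at chr8:95633478-95633558 (plus) and Rfc3 at chr5:151651209-151651258 (minus). In Mcm5 the capitals cover 2 overlapping matches on opposite strands. Mcm6 has 3 matches in its 250 bases, of which the stretch shows 1.
Mcm5: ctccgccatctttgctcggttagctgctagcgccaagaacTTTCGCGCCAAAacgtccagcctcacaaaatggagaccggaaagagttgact
Mcm6: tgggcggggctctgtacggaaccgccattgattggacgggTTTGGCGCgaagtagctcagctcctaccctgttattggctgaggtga
Gins3: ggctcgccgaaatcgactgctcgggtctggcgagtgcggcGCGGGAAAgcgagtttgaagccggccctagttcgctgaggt
Rfc3: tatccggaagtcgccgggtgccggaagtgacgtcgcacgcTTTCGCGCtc
The day 1 ratios differed among genes with the motif and among genes without it. Gins3, with the motif, was 1.35 times the control on day 1 of DSS (0.77 to 2.43). On day 1 of PhIP/DSS Gins3 was at 1.74 times (1.02 to 3.06). Mcm5, also with the motif, was 2.47 times the control on day 1 of DSS (2.13 to 2.89). Of genes with no match in this window, Rrm2 was 5.78 times there (4.52 to 7.49) and Rfc1 1.16 times (1.01 to 1.33). A link between the motif and the ratios was not tested.

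Of the licensing genes, which load the helicase in G1, all 4 were at least 1.5-fold above the control in the PhIP/DSS day 1 library and 2 of 4, Orc1 and Cdc6, in the DSS day 1 library. Cdc6, the loading ATPase, was the least abundant of all 42 genes in the control, at 0.963 RPKM (34 reads). It was at 2.16, 1.88 and 1.45 RPKM on days 1, 3 and 7 of DSS and at 3.00, 1.93 and 1.39 RPKM in the PhIP/DSS arm. All 6 treated libraries stood above the control, although the day 7 intervals reached below 1 (1.55, 0.99 to 2.44, after DSS and 1.46, 0.93 to 2.31, after PhIP/DSS). Cdt1, the other loading factor, was at 7.61 RPKM in the control, 11.4, 9.54 and 7.34 after DSS and 14.04, 7.77 and 6.89 after PhIP/DSS. Cdt1 was thus within counting error of the control on day 7 in both arms, at ratios of 0.99 (0.77 to 1.27) and 0.91 (0.71 to 1.17). Orc1, the cell-cycle-regulated subunit of the origin recognition complex, was 2.49 times the control on day 1 of DSS (1.80 to 3.49) and 2.38 times after PhIP/DSS (1.72 to 3.34). Orc6, another subunit, was 1.48 times after DSS (1.04 to 2.13) and 2.33 times after PhIP/DSS (1.68 to 3.27).

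Among the factors that activate the helicase, Cdc45 had the second highest fitted change of the 42 genes and Gins4 one of the lowest. Cdc45 was at 1.57 RPKM in the control (26 reads), 7.84, 4.27 and 3.64 after DSS and 7.37, 4.01 and 2.97 after PhIP/DSS. Every treated library lay above the control for Cdc45, from 1.91-fold (1.18 to 3.18) on day 7 of PhIP/DSS to 4.98-fold (3.27 to 7.88) on day 1 of DSS. Mcm10, which helps start unwinding, had the same order of days, with ratios of 3.11, 2.31 and 1.63 after DSS and 3.02, 1.81 and 1.48 after PhIP/DSS. The 4 GINS subunits, which form 1 complex, did not share a level, with the highest between 9.41 and 11.4 times the lowest in every library. Gins2 was 2.86-fold (1.88 to 4.46) and Gins1 1.75-fold (0.93 to 3.42) above the control on day 1 of DSS, Gins3 1.35-fold (0.77 to 2.43) and Gins4 1.24-fold (0.99 to 1.55). On day 1 of PhIP/DSS Gins2 was at 3.24-fold (2.14 to 5.02) and Gins1 at 3.12-fold (1.76 to 5.82). Gins3 was at 1.74-fold (1.02 to 3.06) there and Gins4 at 1.48-fold (1.20 to 1.84). In both day 1 libraries only the intervals of Gins2 and Gins4 did not overlap. Gins4 was at 13.6 RPKM in the control, 16.9, 14.03 and 12.4 after DSS and 20.3, 11.6 and 12.3 after PhIP/DSS. Its day 3 and day 7 libraries lay on both sides of the control. The ratio of Gins4 to Gins2 RPKM was 3.68 in the control and 1.60 and 1.68 in the day 1 libraries. Gins1 had only 16 reads in the control and Gins3 22, so their ratios have wide intervals.

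The clamp gene Pcna, which encodes the ring that holds polymerases on DNA, was the most abundant of the 42 genes in every library. Pcna was at 45.1 RPKM in the control, 81.6, 62.8 and 54.3 after DSS and 99.8, 61.2 and 55.4 after PhIP/DSS. It stayed above the control by more than counting error on day 7, at 1.24-fold in both arms (1.09 to 1.41 after DSS and 1.09 to 1.40 after PhIP/DSS). The 5 subunits of replication factor C, the loader of that ring, were not alike. Rfc1, the large subunit, was at 9.98 RPKM in the control, 11.6, 10.4 and 10.3 after DSS and 9.81, 9.84 and 9.86 after PhIP/DSS. Rfc1 was the lowest of the 42 genes in its fitted day 1 change (log2 0.09 ± 0.13, SE, adjusted p = 0.654 with edgeR) and the only one not above the control on day 1 of PhIP/DSS, at 0.97-fold (0.84 to 1.13), a direction that turned when the ratio was set against genes of like length (log2 0.20). Rfc5 was 1.64-fold (1.31 to 2.05) and 1.93-fold (1.56 to 2.41) above the control in the day 1 libraries and Rfc3 1.54-fold and 1.56-fold, whereas Rfc2 and Rfc4 stayed under 1.5-fold in all 6. The ratio of Rfc1 to Rfc5 RPKM was 1.07 in the control, 0.756 on day 1 of DSS and 0.541 on day 1 of PhIP/DSS. Rfc1 is 4731 bases long and Rfc5 1750. Set against genes of like length, their log2 ratios lay closer together on day 1 of PhIP/DSS, at 0.20 and 0.72 in place of -0.04 and 0.95. On day 1 of DSS they were 0.34 and 0.59 in place of 0.21 and 0.71.

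The polymerase and primase genes had a median log2 ratio of 0.68 on day 1 of DSS and 0.80 on day 1 of PhIP/DSS, and 7 and 6 of the 8 were at least 1.5-fold above the control. Prim2, the large primase subunit, was highest by fitted change, at 3.77 RPKM in the control, 9.99, 7.52 and 7.32 after DSS and 9.74, 5.88 and 5.96 after PhIP/DSS. It was still 2.00-fold (1.44 to 2.80) above the control on day 7 of DSS and 1.59-fold (1.13 to 2.25) on day 7 of PhIP/DSS. Pole, the catalytic subunit of the leading-strand polymerase epsilon, was at 1.88 RPKM in the control, 2.89, 2.11 and 1.88 after DSS and 2.26, 2.34 and 1.94 after PhIP/DSS. Its level in PhIP/DSS on day 1 was 0.78 times that in DSS (0.62 to 0.97). Pole2, the second subunit of the same enzyme, was 2.00-fold (1.23 to 3.33) and 2.99-fold (1.90 to 4.88) above the control on day 1. The accessory subunits were above the catalytic ones in the polymerase alpha pair also, with Pola2 at 2.00-fold and 2.32-fold and Pola1 at 1.60-fold and 1.74-fold in the day 1 libraries. In polymerase delta, which copies the lagging strand, Pold2 was at 1.61-fold and 1.74-fold and Pold1 at 1.40-fold and 1.38-fold. Set against genes of like length, these differences were smaller on day 1 of DSS, with log2 ratios of 0.86 for Pole and 0.86 for Pole2, 0.80 for Pola1 and 0.95 for Pola2, and 0.52 for Pold1 and 0.57 for Pold2. On day 1 of PhIP/DSS they were 0.69 for Pole and 1.33 for Pole2, 1.04 for Pola1 and 1.13 for Pola2, and 0.53 for Pold1 and 0.57 for Pold2.

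The 4 genes that finish and protect the new strands were all at least 1.5-fold above the control in both day 1 libraries. Lig1, the ligase that joins Okazaki fragments, was at 9.89 RPKM in the control, 20.5, 14.5 and 13.7 after DSS and 22.1, 13.1 and 12.9 after PhIP/DSS. Its day 7 libraries still stood 1.42-fold (1.20 to 1.68) and 1.31-fold (1.11 to 1.55) above the control. Rpa1, the large subunit of the protein that coats single-stranded DNA, was at 10.9 RPKM in the control, 18.8, 14.3 and 11.9 after DSS and 19.2, 13.96 and 12.4 after PhIP/DSS. The 2 arms gave nearly the same Rpa1 level on each day, with PhIP/DSS to DSS ratios between 0.96 and 1.02. Fen1, the flap endonuclease, was 1.87-fold (1.48 to 2.37) above the control after DSS and 2.42-fold (1.94 to 3.05) after PhIP/DSS on day 1.

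Rrm2, the small subunit of ribonucleotide reductase and the one whose supply follows S phase, had the highest fitted change of the 42 genes. It was at 4.39 RPKM in the control (74 reads), 25.5, 17.3 and 9.91 after DSS and 37.6, 12.8 and 10.4 after PhIP/DSS. All 6 treated libraries were above the control, by 5.78-fold (4.52 to 7.49) on day 1 of DSS and 8.48-fold (6.67 to 10.9) on day 1 of PhIP/DSS, and by 2.32-fold and 2.40-fold on day 7. The fitted log2 fold change of day 1 was 2.83 ± 0.37 (SE) with an edgeR adjusted p of 0.0710. The ratio of PhIP/DSS to DSS was 1.47 (1.31 to 1.65) on day 1 and 0.73 (0.62 to 0.87) on day 3. Rrm1, the large subunit, was 1.94-fold (1.71 to 2.21) and 2.19-fold (1.94 to 2.49) above the control on day 1 and at 0.99-fold and 1.05-fold on day 7. The ratio of Rrm2 to Rrm1 RPKM was 0.374 in the control and between 0.854 and 1.44 in all 6 treated libraries. Rrm2b, the alternative small subunit used outside S phase, was at 1.61 RPKM in the control and between 1.41 and 1.87 RPKM in the treated libraries.

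Dut, which removes dUTP, was 2.20-fold (1.71 to 2.85) and 2.66-fold (2.08 to 3.43) above the control on day 1 and within counting error of it on day 7, at 0.92-fold (0.68 to 1.26) and 0.99-fold (0.73 to 1.34). Tk1, the S-phase thymidine kinase, was 1.53-fold (1.25 to 1.87) and 1.99-fold (1.64 to 2.41) above the control on day 1. Tyms, thymidylate synthase, was lowest by fitted change in this group. Tyms was at 5.76 RPKM in the control, 9.02, 7.48 and 5.06 after DSS and 8.40, 6.70 and 5.38 after PhIP/DSS. Both day 7 libraries were slightly under the control for Tyms, by less than counting error.

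Uhrf1, which carries DNA methylation over to the new strand, was at 8.52 RPKM in the control, 18.7, 13.3 and 9.87 after DSS and 20.7, 11.9 and 8.47 after PhIP/DSS. Both day 1 libraries stood above the rest, and the day 7 library of PhIP/DSS matched the control at a ratio of 1.00 (0.84 to 1.20). Chaf1a and Chaf1b encode 2 subunits of the chromatin assembly factor that deposits histones behind the fork. Chaf1b was at 5.87 RPKM in the control, 8.14, 5.83 and 6.01 after DSS and 10.04, 7.69 and 5.91 after PhIP/DSS, so only its day 1 libraries were clear of the control by counting error. Chaf1a was 2.02-fold (1.59 to 2.58) and 2.25-fold (1.78 to 2.86) above the control on day 1.

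The lower levels after day 1 were seen within each arm, without use of the control. In the DSS arm 33 of the 42 genes were ordered day 1 above day 3 above day 7, beside 24.1% of all genes, and in the PhIP/DSS arm 35 were, beside 27.0%. Between the arms the day 3 counts differed. By day 3, 27 of 42 were at least 1.5-fold below their day 1 level in the PhIP/DSS arm, beside 13.4% of all genes, and 3 of 42 (Cdc45, Gins2 and Dut) in the DSS arm, beside 4.40%. By day 7 the counts were 34 of 42 beside 16.7% and 19 of 42 beside 7.54%. This difference between the arms rests on single libraries and was not tested. In the edgeR fit of day 7 against day 1, 32 of 42 were lower at an unadjusted p under 0.05, beside 14% of all genes, and 0 were higher, beside 12.3%, with a median log2 difference of -0.73. Rrm2 had the largest fitted difference of the 42, -1.59 ± 0.26 (SE), followed by Dut at -1.34 ± 0.15, and Rfc1 the smallest at -0.05 ± 0.10. DESeq2 called 10 of the 17 genes it gave an adjusted p lower, beside 5.03% of all genes with one (Mcm2, Mcm3, Mcm5, Mcm6, Mcm7, Pcna, Pold2, Rrm1, Rrm2 and Uhrf1), and 0 higher, beside 5.13%. With edgeR the count of lower genes was 27 without the DSS day 1 library, beside 13.1% of all genes, and 12 without the PhIP/DSS day 1 library, beside 2.4%.

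The arms were compared to ask how the replication genes differed with prior PhIP. Over the 3 days the fitted difference between PhIP/DSS and DSS had a median log2 of -0.01, which lay on either side of 0 when single libraries were left out (-0.10 to 0.08), and ranged from -0.27 ± 0.16 (SE) for Orc1 to 0.39 ± 0.30 for Gins1. edgeR called 0 of 42 in this comparison (0 of all genes), 0 at an unadjusted p under 0.05 (2.01% of all genes were higher and 1.66% lower), and DESeq2 called 0 of the 3 it gave an adjusted p (0.155% of all genes with one were higher and 0.31% lower). On single days the direction differed. On day 1, 34 of 42 were higher in PhIP/DSS than in DSS, beside 50.1% of all genes, with a median log2 ratio of 0.18. On day 3, 13 were higher, beside 50.5%, with a median of -0.10, and on day 7, 15 were, beside 48.7%, with a median of -0.06. Most of these ratios were small. At least 1.5-fold higher on day 1 were 2 of 42, Orc6 at 1.57 (1.19 to 2.08) and Gins1 at 1.78 (1.13 to 2.84), beside 10.5% of all genes, and none was 1.5-fold lower, beside 6.31%. Across all genes the day 1 ratio between the arms also moved with gene length. Its median log2 was 0.12 under 2000 bases, 0.01 for 2000 to 4000 and -0.13 over 4000, beside 0.25, 0.15 and -0.06 for the 42. Orc6 and Gins1 are 1663 and 1100 bases long, and the part of length in their ratios was not tested. At least 1.5-fold lower on day 3 was 1 of 42, Pola1 at 0.62 (0.46 to 0.82), beside 7.45%, and none was 1.5-fold higher, beside 5.25%. On day 7 there was none in either direction, beside 5.10% higher and 5.86% lower. With 1 pool per arm and day, these ratios compare libraries, and a difference between the arms within a day cannot be told apart from one between pools of mice.

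Other genes around the fork were examined from lists that do not contain the 42. Of 35 further replication factors 18 were at least 1.5-fold above the control on day 1 of DSS and 20 on day 1 of PhIP/DSS. The shares of all genes were 14.6% and 22.5%, and the median log2 ratios of the 35 were 0.61 and 0.64. None of the 35 was 1.5-fold lower in these libraries, beside 14.2% and 20.3% of all genes. At the top by fitted change on day 1 were Pclaf, a PCNA-binding factor, at log2 1.61 ± 0.18 (SE), and Cdc7, the kinase that fires origins, at 1.56 ± 0.50, both with edgeR adjusted p over 0.05 (0.0710 and 0.115). The lowest were Mcmbp, an MCM-binding protein, at -0.28 ± 0.16 and Asf1a, a histone chaperone, at -0.02 ± 0.39. Gmnn, the inhibitor of Cdt1, was at 8.52 RPKM in the control and 10.6 and 10.9 RPKM in the day 1 libraries, and the ratio of Cdt1 to Gmnn was 0.893 in the control, 1.07 on day 1 of DSS and 1.28 on day 1 of PhIP/DSS. Clspn, a fork protection factor, and Dnmt1, the maintenance methyltransferase, had fitted day 1 changes of 0.64 ± 0.23 and 0.33 ± 0.18. Of 27 G1 and S phase regulators, 11 and 14 were 1.5-fold higher in the day 1 libraries, beside 14.6% and 22.5% of all genes. Of the 27, 4 and 5 were 1.5-fold lower, near the shares of all genes (14.2% and 20.3%). Among them Ccne1, an activating cyclin of S phase, was at 2.52 RPKM in the control, 5.95 on day 1 of DSS and 10.6 on day 1 of PhIP/DSS, and Ccne2 was at 1.21, 2.01 and 3.57 RPKM. E2f1, an activating E2F, was at 2.28, 4.28 and 3.71 RPKM, and Ccna2, the S and G2 cyclin, was at 30.4, 57.3 and 64.1 RPKM. Cdkn1a, the p21 inhibitor of the cell cycle, was at 252, 231 and 259 RPKM. Of 15 tested genes of replication stress and repair 6 and 7 were 1.5-fold higher in the day 1 libraries, beside 14.6% and 22.5%. Of these 15, 0 were 1.5-fold lower, beside 14.2% and 20.3%. Exo1, an exonuclease of mismatch repair, was at 0.829, 1.48 and 2.21 RPKM.

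The 30 mitosis and spindle genes shared the day 1 peak and lay nearer the control than the 42 on day 3. On day 1, 19 of 30 were 1.5-fold above the control after DSS and 21 after PhIP/DSS, beside 14.6% and 22.5% of all genes. On day 3 the counts were 3 and 0 and on day 7 they were 0 and 0, with median log2 ratios of 0.24 and 0.03 on day 3 and -0.14 and 0.03 on day 7. Of all genes 14.7% and 11.5% were 1.5-fold higher on day 3 and 13.6% and 13.1% on day 7. The 42 replication genes, for comparison, had medians of 0.50 and 0.44 on day 3. The 35 other replication factors lay between the 42 and the mitosis list that day, at medians of 0.31 and 0.15. Of the 35, 9 and 1 were 1.5-fold higher on day 3. The difference between the lists was not tested. Aurka, a spindle kinase, was at 10.7 RPKM in the control, 22.8, 14.4 and 12.4 after DSS and 27.4, 11.8 and 12.2 after PhIP/DSS. Birc5 (survivin) was at 8.17 RPKM in the control, 15.9, 10.7 and 8.62 after DSS and 21.9, 9.10 and 8.64 after PhIP/DSS. Mki67, the gene of the proliferation marker Ki-67, did not follow them, at 36.8 RPKM in the control, 43.4, 29.6 and 26.2 after DSS and 32.4, 27.4 and 28.7 after PhIP/DSS. Only its DSS day 1 library exceeded the control. Cenpf, a kinetochore gene, was also at the bottom of the list by fitted day 1 change, at -0.06 ± 0.25 (SE). Top2a, which untangles DNA, was at 19.8 RPKM in the control and 37.8 and 39.5 RPKM in the day 1 libraries. The ratio of Pcna to Mki67 RPKM was 1.23 in the control, 1.88 on day 1 of DSS and 3.08 on day 1 of PhIP/DSS. It was between 1.93 and 2.24 in the 4 other treated libraries. Pcna is 1260 bases long and Mki67 10098, and across all genes the day 1 ratios were higher for shorter genes. The part of gene length in this ratio was not tested.

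**Figure D3:**
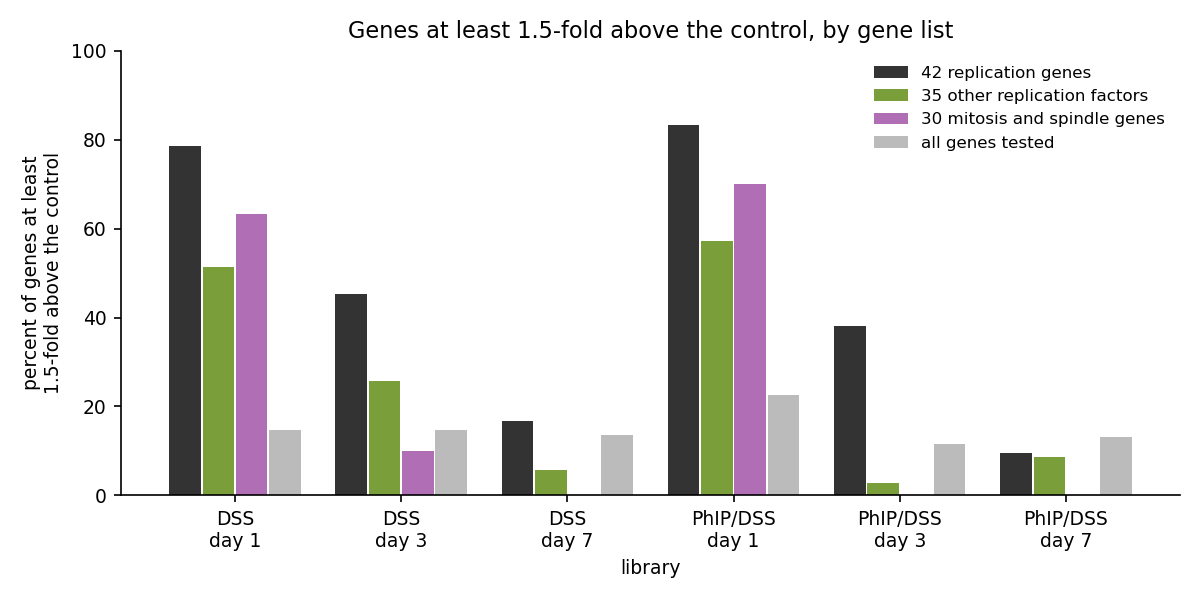
Percent of genes at least 1.5-fold above the control (y axis, from 0) in each treated library (x axis) for the 42 replication genes, 35 other replication factors, 30 mitosis and spindle genes and all 12061 genes tested. On day 1 the replication genes reach 78.6% and 83.3%. On day 3 they are at 45.2% and 38.1%, the other factors at 25.7% and 2.86% and the mitosis genes at 10% and 0%. On day 7 no list stands far above all genes.

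Markers of other cell types also differed between the libraries. The 42 replication genes summed to 332 RPKM in the control, 617, 468 and 388 after DSS and 714, 442 and 379 after PhIP/DSS. The 7 neutrophil markers found in the tables summed to 2.82 RPKM in the control, 35.4, 1146 and 457 after DSS and 809, 31.0 and 68.8 after PhIP/DSS, with Retnlg, Clec4e and Mmp8 at 0 reads in the control and no marker of the list at 0 elsewhere. The 9 macrophage and monocyte markers summed to 48.4 RPKM in the control, 102, 280 and 239 after DSS and 491, 96.5 and 178 after PhIP/DSS. In the DSS arm these neutrophil and macrophage sums were highest on day 3, while the replication genes were highest on day 1, when the neutrophil sum was 35.4 RPKM. In the PhIP/DSS arm the neutrophil, macrophage and replication sums were all highest on day 1. That library also held the most fibroblast markers, 158 RPKM over 8 genes beside between 12.6 and 84.3 RPKM elsewhere, and the most fat cell markers, 118 RPKM over 6 genes beside 15.3 RPKM in the control and at most 1.77 RPKM in the others. T and NK cell markers (9 found) summed to between 6.92 and 16.03 RPKM and B and plasma cell markers (9) to between 107 and 203 RPKM. Endothelial markers (5) summed to between 1.96 and 5.37 RPKM, smooth muscle markers (5) to between 10.7 and 18.3 RPKM and absorptive colonocyte markers (7 found) to between 2835 and 4319 RPKM. The part of these cells in the replication gene levels was not tested. Goblet cell markers summed to 11790 RPKM in the control and were lowest in the day 1 libraries, at 8301 and 7495 RPKM, and the 8 crypt stem cell markers summed to 165 RPKM in the control and to between 123 and 158 RPKM in the treated libraries.

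**Figure D4:**
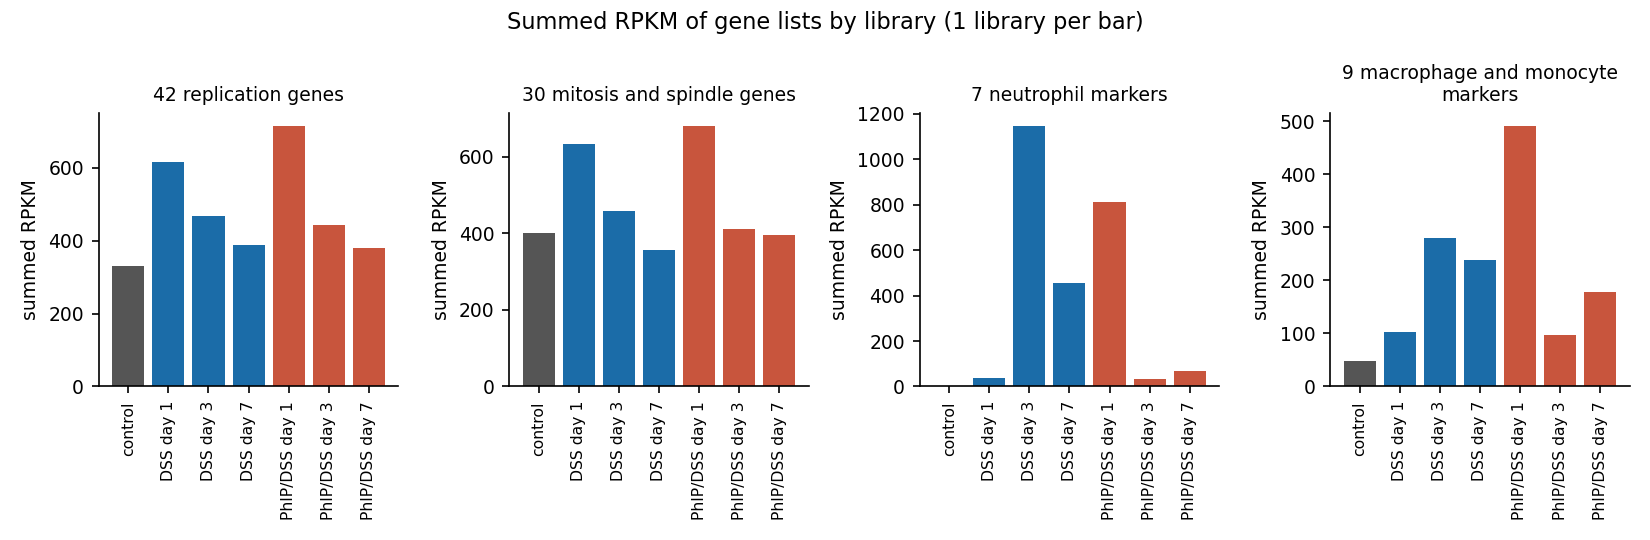
Summed RPKM (y axes, each from 0) of the 42 replication genes, 30 mitosis and spindle genes, 7 neutrophil markers and 9 macrophage and monocyte markers in the 7 libraries, 1 library per bar. In the DSS arm the bars of the first 2 panels are highest on day 1 and those of the last 2 on day 3, and in the PhIP/DSS arm all 4 panels are highest on day 1.

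Gene length moved with the day 1 ratios across the whole data set. On day 1 of PhIP/DSS the median log2 ratio of all genes was 0.29 for those under 2000 bases, 0.02 for 2000 to 4000 bases and -0.29 for those over 4000 bases, and on day 1 of DSS it was 0.15, 0.02 and -0.17. The 42 genes lay above their length class in each case. Their medians were 0.97 (16 genes), 1.23 (22 genes) and 0.53 (4 genes) on day 1 of PhIP/DSS, and 0.66, 1.01 and 0.65 on day 1 of DSS. The 4 longest were Cdc6, Rfc1, Pola1 and Pole. Rfc1 at 0.97-fold and Pole at 1.19-fold on day 1 of PhIP/DSS were the lowest of the 42 there, and the long genes Mki67 and Cenpf were the lowest of the mitosis list. After each ratio was set against the median of genes of like length, a comparison added after the data had been seen, 29 and 34 of 42 were at least 1.5-fold above the control in the DSS and PhIP/DSS day 1 libraries, beside 13.2% and 20.1% of all genes, and all 42 were above the control in both.

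**Figure D5:**
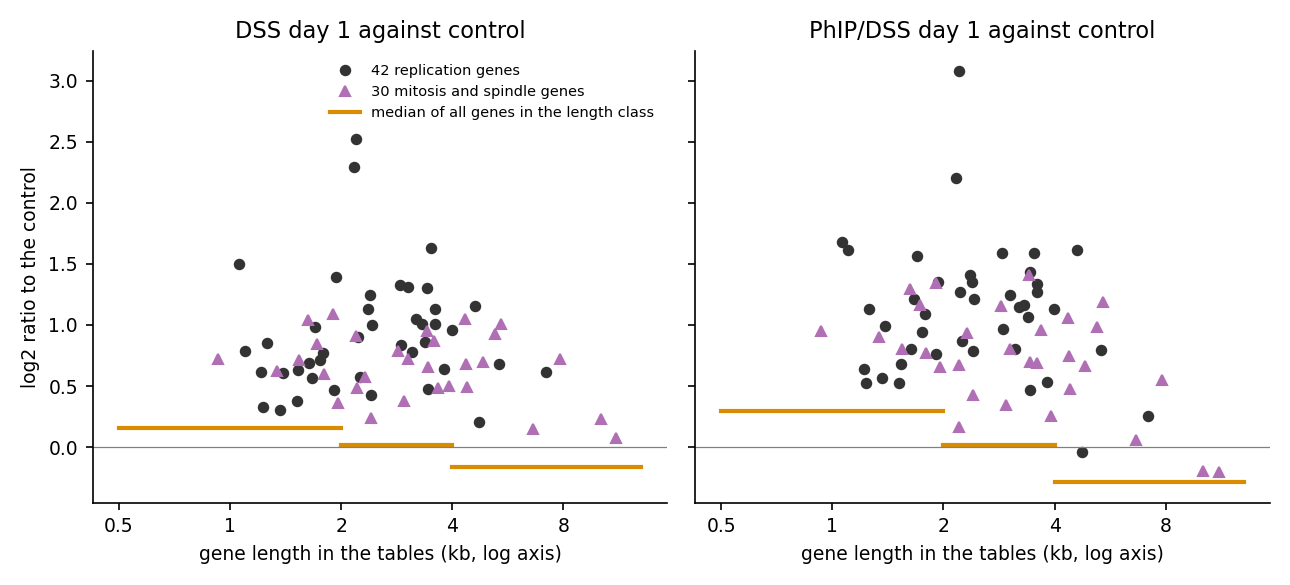
Log2 ratio to the control (y axis) against gene length in kb (x axis, log scale) on day 1 of DSS (left) and PhIP/DSS (right) for the 42 replication genes (circles) and 30 mitosis and spindle genes (triangles), with bars at the median of all genes in each length class. The bars step down from 0.29 to -0.29 in the right panel, and most circles lie above them.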

How the data were processed

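Per the file headers, each deposited table lists genes by Entrez identifier with a gene length, the count of uniquely mapped reads, the percent of the gene covered and the RPKM. The deposited RPKM equalled reads over length and library total, so it carries no further normalization. The submitters' processing notes name mm10 and FastQC, while no source used here gives the aligner, counter, annotation release or strand setting. Genes absent from a library's table were entered as 0. Of 18036 identifiers 17983 matched a symbol in RefSeq (GRCm38.p6). Of the 42 genes 17 overlap another annotated gene, among them Mcm7, Cdc45, Gins2, Rfc4, Pole2 and Fen1, and without strand their reads cannot be told apart from those of the partner.

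The test covered the 12061 genes that reached 1 RPKM in 2 or more libraries, all 42 included, with edgeR 4.0.16 in R 4.3.3 (TMM, quasi-likelihood). The fitted common dispersion of 0.0563 corresponds to a coefficient of variation of 23.7%. DESeq2 1.42.0 and limma 3.58.1 were alternatives. Day comparisons weigh both arms equally. Ratios between libraries used a prior count of 0.5, and their intervals are exact conditional binomial. The scripts were tested on simulated counts. P-values of the main fit reflect how the difference between the arms varied over days. They do not measure the spread between pools of one condition or between mice. A difference with PhIP that changes from day to day is part of that variation. The genes and lists were chosen with earlier results of these data known. Values in every library are given for Mcm2 to Mcm7 and for the highest and lowest gene of each role by fitted day 1 change, and of each other list the highest and lowest 2 and 14 reference genes could be named.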

Additional observations from a re-analysis of the deposited data

How the results depend on the processing

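No paired analysis was possible because each condition had 1 library, so no replicate numbers pair the libraries, and the arms were matched by day within the edgeR fit itself. The median of the 42 genes stayed above 0 on days 1, 3 and 7 and below 0 for day 7 against day 1 under all alternatives run, and that of PhIP/DSS against DSS, -0.01, lay between -0.10 and 0.08. None of the 42 genes was called in any comparison by edgeR under 3 other scalings or with no filter, or by limma, and none for PhIP/DSS against DSS under any alternative. Counts above 0 came from DESeq2 (14 on day 1, 1 on day 3, 10 for day 7 against day 1), from leaving out the PhIP term (23 on day 1 and 4 for day 7 against day 1), and from leaving out single libraries. There they ranged from 0 to 28 on day 1, 0 to 13 on day 3, 0 to 2 on day 7 and 0 to 27 for day 7 against day 1. Without DSS day 1 they were 28, 11, 1 and 27, and without PhIP/DSS day 1 they were 20, 13, 2 and 12, with 1 library then standing for day 1. Of all genes these fits called 2277, 1141 and 1089 higher on days 1, 3 and 7 and 1575 lower for day 7 against day 1, and 744, 1199, 1142 and 289. The median on day 1 was 0.84 to 1.18 and that for day 7 against day 1 was -0.92 to -0.56 with a library left out. With all libraries edgeR called 0 of all genes, DESeq2 called 718 higher and 540 lower on day 1, 301 and 131 on day 3, 338 and 144 on day 7, and 355 and 348 for day 7 against day 1, and edgeR without the PhIP term called 666 and 639 on day 1. The cause was not tested. Scaling to 10 epithelial genes moved the median of all genes to -0.11 on day 7 of DSS, where 29 in place of 33 of the 42 then lay above the control. At an unadjusted p under 0.05 it gave 822 higher and 1222 lower genes on day 3, in place of 1245 and 1046, and 823 and 1092 on day 7, in place of 1112 and 964. The median log2 change on day 3, 0.47, was 0.42 scaled to 10 epithelial genes, 0.41 with limma on log2(RPKM + 1), and 0.42 to 0.57 with a library left out. On day 7, 0.23, it was 0.18 scaled to 10 epithelial genes, 0.20 with library totals, 0.18 and 0.20 with limma at pseudocounts of 1 and 0.1, and 0.16 to 0.28 with a library left out. At 2-fold in place of 1.5-fold, 15, 6 and 2 genes passed on days 1, 3 and 7 of DSS and 24, 4 and 1 of PhIP/DSS, beside 6.7%, 8.27% and 8.48% and 12%, 5.71% and 7.88% of all genes. Depth limits the genes with few control reads, Gins1 (16), Gins3 (22), Pole2 (25) and Cdc45 (26).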

Other observations

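Beside the replication genes, 4 enzymes of one-carbon metabolism, which feeds thymidylate and purine synthesis, had different levels over the libraries. The genes in this paragraph and the next were picked out after their values were seen, and the values are given with no test. Mthfd2 and Shmt2, which encode mitochondrial enzymes, were high on day 1. Mthfd2 was at 1.70 RPKM in the control, 5.75, 6.82 and 3.92 after DSS (days 1, 3 and 7) and 9.45, 4.87 and 3.91 after PhIP/DSS. Shmt2 was at 14.1 RPKM in the control, 35.8, 31.3 and 20.0 after DSS and 42.6, 22.4 and 17.6 after PhIP/DSS. Mthfd1 and Shmt1, which encode cytosolic ones, were near the control on day 1 and below it later. Mthfd1 was at 18.9 RPKM in the control, 21.4, 13.2 and 10.7 after DSS and 23.0, 14.5 and 11.7 after PhIP/DSS. Shmt1 was at 22.2 RPKM in the control, 22.2, 15.4 and 14.02 after DSS and 24.2, 18.7 and 15.4 after PhIP/DSS. Paics, a purine synthesis enzyme, was lower than the control in all 6 treated libraries (46.3 RPKM in the control and between 26.1 and 38.2 RPKM after treatment), while Nme1, a nucleoside diphosphate kinase, was higher in all 6 (22.7 RPKM in the control and between 31.6 and 86.5 RPKM after treatment).

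Of the D-type cyclins and their kinases, Ccnd1 was at 27.1 RPKM in the control and 60.7 and 78.1 RPKM in the day 1 libraries of DSS and PhIP/DSS. Ccnd2 went the other way, from 69.8 RPKM in the control to between 30.3 and 46.7 RPKM in the treated libraries. Cdk6 was at 7.87 RPKM in the control and between 1.94 and 3.71 RPKM in the treated libraries, with a fitted day 1 log2 change of -1.58 ± 0.25 (SE) and an edgeR adjusted p of 0.0710. Rbl2, a pocket protein of resting cells, was at 15.6 RPKM in the control and 9.92 and 7.25 RPKM in the day 1 libraries. Samhd1, which breaks down deoxynucleotides, was highest in the day 7 libraries within the DSS arm (40.3 RPKM) and the PhIP/DSS arm (50.4 RPKM), beside 32.4 RPKM in the control.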
